A study of Homo sapiens with 4 samples.

Results

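The nuclear RNA polymerase subunit genes were described with and without induction of GADD45G in MOLM-13, a human cell line established from acute myeloid leukaemia. Members were the protein-coding genes whose current symbol begins with POLR1, POLR2 or POLR3, and 33 such genes were found among the 57820 Ensembl gene IDs of the complete files, after 14 symbols of pseudogenes were left out. Of these, 31 were listed in all 4 libraries and 30 passed the filter of a mean of at least 1 RPKM (reads per kilobase of gene, scaled to the reads of the library), among 10771 genes that passed it. By the enzyme they serve, the 30 comprised 6 genes of polymerase I, 7 of polymerase II, 10 of polymerase III, 2 shared by polymerases I and III, and 5 shared by all 3 enzymes. RNA was sequenced from 2 untreated cultures and from 2 cultures kept for 4 days with doxycycline at a labelled 1 mg/ml, and the design text calls the 2 libraries of a group biological replicate experiments. The labels name neither the promoter of the inducible construct nor the number of clones. Because the drug and the transgene were present together, their effects cannot be told apart, and no culture with doxycycline alone was used here.

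Polymerase I transcribes the large ribosomal RNA precursor in the nucleolus, polymerase II transcribes messenger RNA genes, and polymerase III transcribes transfer RNA, the smallest ribosomal RNA and other short RNAs. Each enzyme has a pair of large catalytic subunits, a platform on which they assemble, a stalk that receives the new RNA, and a set of small subunits common to all 3. Output of polymerases I and III is known to follow cell growth.

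The label of the induced libraries was checked on GADD45G, which was at 10.5 and 0.289 RPKM in untreated controls 1 and 2 and at 3236 and 2118 RPKM in GADD45g induced libraries 1 and 2. The libraries held 15683931 to 18895470 reads, as recovered from the values, and the 30 tested subunit genes had from 22 reads (POLR3G, induced 1) to 6681 reads (POLR1D, control 1) in a library. Of 10 myeloid markers, 9 were listed in all 4 libraries and summed to 1341 and 1085 RPKM in the controls and to 527 and 491 RPKM after induction. LYZ made up most of that sum in the controls, at 1173 and 868 RPKM, and was at 268 and 242 RPKM after induction. The other 8 summed to 168 and 217 RPKM in the controls and to 259 and 248 RPKM after induction. Of these, PTPRC, SPI1, ANPEP, ITGAM and, at a low level, MPO were higher in both induced libraries than in both controls. CD33 went the other way, from 17.6 and 21.5 RPKM to 12.5 and 13.7 RPKM, as did FLT3, and CSF1R overlapped. CEBPA, not listed in induced 1, was at 3.36 and 3.54 RPKM in the controls and 0.643 RPKM in induced 2. Of the 9, PTPRC, CD33, SPI1, LYZ, ANPEP and ITGAM were above 1 RPKM in all 4 libraries, while MPO was at 0.162 to 0.278 RPKM and FLT3 was at 0.958 and 1.19 RPKM in the controls and 0.0889 and 0.0451 RPKM after induction. The 8 epithelial markers summed to 41.8 RPKM in control 1 and 40.9 RPKM in induced 1, against 0.437 RPKM in control 2 and 0.283 RPKM in induced 2. That signal was thus at a like level in 1 library of each group, and changes within control 2 and induced 2, where KRT19 and EPCAM were listed at 0, are also given for the classes of subunit genes. The 7 fibroblast markers summed to 4.16 and 3.35 RPKM in the controls and 6.98 and 6.52 RPKM after induction, and the part of these cells in the results was not tested. In bulk RNA, fewer cells of a type and less RNA per cell cannot be told apart.

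Most polymerase I genes and 6 of 10 polymerase III genes fell after induction, while 6 of 7 polymerase II genes and the 5 subunits common to all 3 enzymes did not pass the test. Over the 30 genes, 13 fell and 0 rose (limma on log2(RPKM + 1), adjusted p under 0.05 over all 10771 genes), where 26.7% of all tested genes were called lower and 12.2% higher. Scaling moved that background, with 2871 lower and 1314 higher calls over all genes as deposited, 2293 and 1700 after upper quartile scaling, 2046 and 1917 after TMM scaling, 2080 and 1874 after quantile normalization, and 2045 and 1877 after a shift of the median change to 0. At an unadjusted p under 0.05 the counts were also 13 lower and 0 higher, against 32.5% and 15.2% of all tested genes, and limma's voom on the recovered reads gave 13 and 0, against 29.9% and 13.6%. The calls comprised 5 of 6 polymerase I genes, 1 of 2 genes shared by polymerases I and III, 6 of 10 polymerase III genes, 1 of 7 polymerase II genes and 0 of 5 genes common to all 3. Among the 6 polymerase III genes, POLR3B and POLR3G passed the filter of 1 RPKM only through their controls. The median log2 change was -1.43 for polymerase I, -0.76 for polymerase III, -0.15 for polymerase II and -0.02 for the common subunits, against -0.21 over all tested genes. Both induced libraries lay below both controls for 18 of the 30 genes, where 45.8% of all tested genes did so, and above both controls for 2, where 24.1% did so. In control 2 and induced 2 alone the median log2 change was -1.66 for polymerase I, -0.81 for polymerase III, -0.36 for polymerase II and -0.16 for the common subunits. In control 1 and induced 1 it was -1.38, -0.70, 0.19 and 0.07, so polymerase II and the common subunits changed places. Each of the 13 called genes had both induced libraries below both controls, so being lower in both pairs follows from that. Their log2 changes in control 2 and induced 2 were -2.12 to -0.70.

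**Figure D1:**
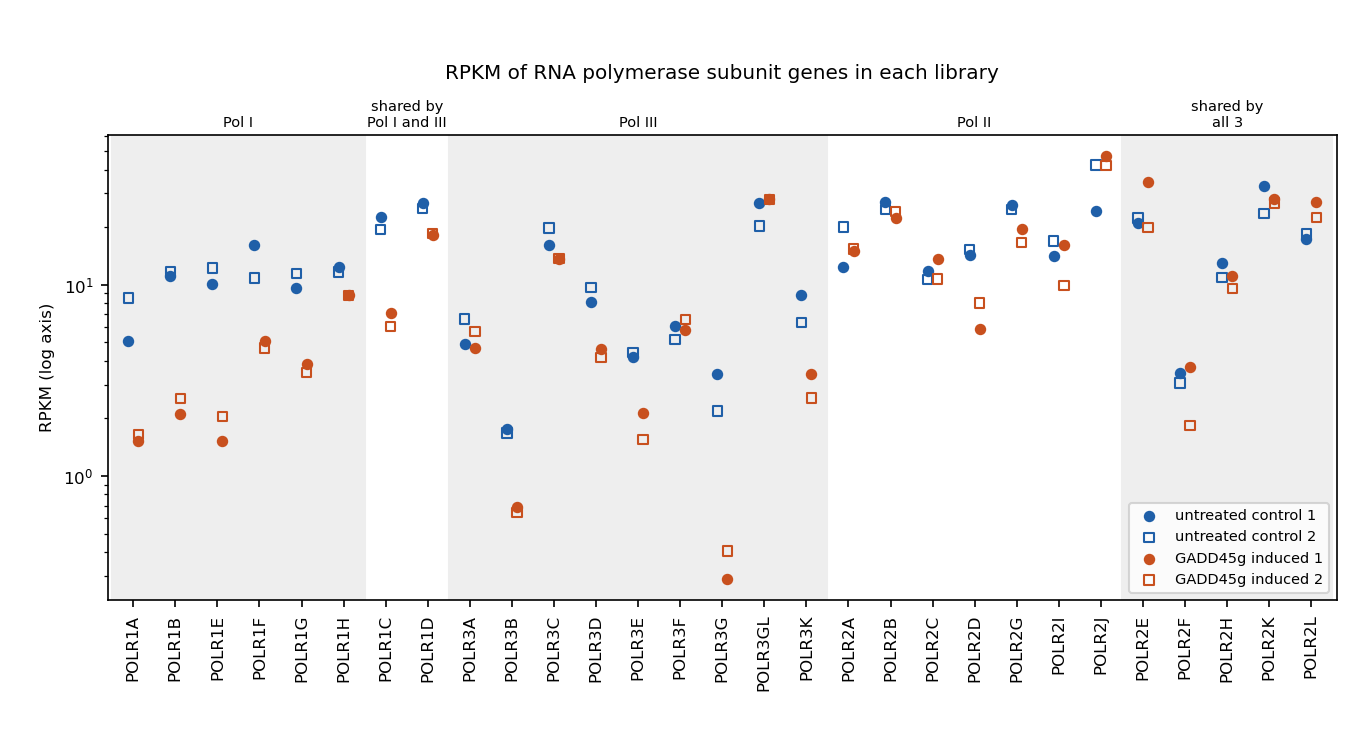
RPKM (log axis) of 29 of the 30 tested subunit genes in each of the 4 libraries, grouped by the polymerase they serve; blue symbols are untreated controls, orange symbols GADD45g induced libraries, circles replicate 1 and squares replicate 2. All 6 polymerase I genes had both induced libraries below both controls, whereas groups overlapped for 4 of 7 polymerase II genes and 4 of 5 common subunits. Over all tested genes, 45.8% had both induced libraries below both controls and 24.1% above both.

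**Figure D2:**
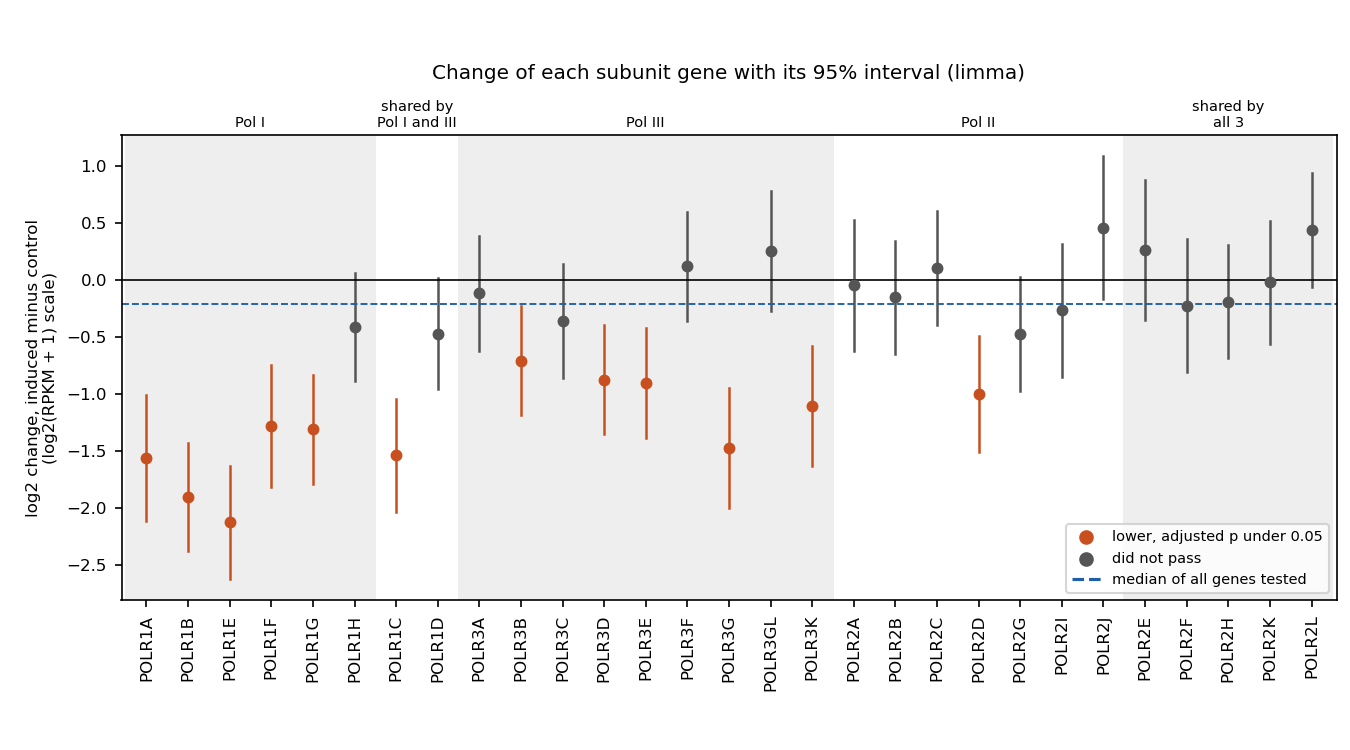
Log2 change of 29 of the 30 tested subunit genes, induced minus control on the log2(RPKM + 1) scale, with its 95% interval from limma; orange marks an adjusted p under 0.05. The intervals of the 5 called polymerase I genes lie below the all-gene median of -0.21 (dashed), and those of 6 of 7 polymerase II genes span 0.

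Both catalytic subunits of polymerase I fell, POLR1A 4.29-fold and POLR1B 4.90-fold on the group means. POLR1A (ENSG00000068654), the largest subunit, was at 5.10 and 8.53 RPKM in the controls and at 1.53 and 1.65 RPKM after induction. The change on the log2 scale came to -1.56 ± 0.25 (SE; adjusted p = 0.000758 in limma), and the controls differed from each other more than the induced libraries did. POLR1B (ENSG00000125630), the second-largest subunit, was at 11.1 and 11.7 RPKM in the controls and at 2.11 and 2.53 RPKM after induction, a log2 change of -1.90 ± 0.21 (adjusted p = 8.27e-05). The 2 groups did not overlap for either gene.

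Among the subunits peculiar to polymerase I, POLR1E (ENSG00000137054) encodes a partner of POLR1G in a heterodimer that helps the enzyme to initiate. POLR1E was at 10.03 and 12.2 RPKM in the controls and at 1.52 and 2.04 RPKM after induction, 6.24-fold lower on the group means (log2 change -2.12 ± 0.22, limma adjusted p = 5.56e-05). POLR1G was at 9.63 and 11.4 RPKM in the controls and at 3.83 and 3.47 RPKM after induction, 2.89-fold lower (adjusted p = 0.000892). In GENCODE 29, 43.5% of the exon bases of POLR1G are shared with ERCC1 on the opposite strand, so its reads may come from either gene. POLR1F, a stalk subunit, was at 16.1 and 10.8 RPKM in the controls and at 5.06 and 4.67 RPKM after induction (log2 change -1.28 ± 0.24, adjusted p = 0.00191). POLR1H, the small subunit that aids RNA cleavage, did not pass: it was at 12.4 and 11.6 RPKM in the controls and at 8.86 and 8.77 RPKM after induction (log2 change -0.41, 95% interval -0.88 to 0.07, adjusted p = 0.158). The induced values of POLR1H lay below both controls, as those of the other polymerase I genes did, and 24.5% of its exon bases are shared with an antisense transcript.

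The assembly platform shared by polymerases I and III is a dimer of the products of POLR1C and POLR1D, both of which are mutated in Treacher Collins syndrome. POLR1C was at 22.7 and 19.3 RPKM in the controls and at 7.14 and 6.03 RPKM after induction, 3.19-fold lower (log2 change -1.54 ± 0.22, limma adjusted p = 0.000410). POLR1D was at 26.6 and 25.0 RPKM in the controls and at 18.2 and 18.5 RPKM after induction, which did not pass (log2 change -0.47, 95% interval -0.96 to 0.02, adjusted p = 0.119). The induced libraries lay below both controls for both genes of the dimer. The difference between their changes was not tested.

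In polymerase III, the RPC7 position of the trimer that opens promoters is filled by the product of either POLR3G or POLR3GL, and POLR3G is known for its expression in stem cells and transformed cells. POLR3G (ENSG00000113356) fell 8.03-fold on the group means, with 3.39 and 2.19 RPKM in the controls against 0.290 and 0.405 RPKM after induction (log2 change -1.48 ± 0.24, limma adjusted p = 0.000774). These values rest on 256 and 138 reads in the controls and on 22 and 26 reads after induction, and the exact Poisson 95% intervals of 1.84 to 2.59 RPKM in control 2 and 0.265 to 0.594 RPKM in induced 2 do not meet. POLR3G was under 1 RPKM after induction, so it entered the test only through its controls. POLR3GL (ENSG00000121851) was at 26.7 and 20.2 RPKM in the controls and at 28.0 and 27.8 RPKM after induction (log2 change 0.25, 95% interval -0.27 to 0.78, adjusted p = 0.430). In GENCODE 29, 21.2% of the exon bases of POLR3GL are shared with another gene on the same strand. POLR3GL was the higher of the pair in all 4 libraries, 7.86- and 9.24-fold in the controls and 96.5- and 68.6-fold after induction. The log2 ratio of POLR3G to POLR3GL within a library was -2.97 and -3.21 in the controls and -6.59 and -6.10 after induction, a difference of -3.26. An exact two-sided permutation test over the 4 libraries gave p = 0.333, the smallest that 2 against 2 can give.

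The other subunits of that trimer did not pass. POLR3C was at 16.1 and 19.8 RPKM in the controls and at 13.7 and 13.7 RPKM after induction (log2 change -0.36, 95% interval -0.86 to 0.14). POLR3F was at 6.06 and 5.18 RPKM in the controls and at 5.80 and 6.59 RPKM after induction, with overlapping groups (log2 change 0.12, 95% interval -0.36 to 0.60).

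Of the catalytic subunits of polymerase III, POLR3B passed and POLR3A did not, and the difference between them was not tested. POLR3A, the largest, was at 4.88 and 6.63 RPKM in the controls and at 4.69 and 5.70 RPKM after induction, with overlapping groups (log2 change -0.12, 95% interval -0.62 to 0.39, adjusted p = 0.720). POLR3B, the second-largest, was the lowest tested subunit gene in the controls, at 1.76 and 1.68 RPKM, and was at 0.686 and 0.645 RPKM after induction, 2.59-fold lower (log2 change -0.71 ± 0.22, limma adjusted p = 0.0239). Its 161 and 128 reads in the controls stood against 63 and 50 reads after induction. POLR3B was under 1 RPKM after induction, so it entered the test only through its controls. The call of POLR3B was lost after TMM and quantile scaling, after a shift of the median change to 0, with no filter, without control 1 and without either induced library (adjusted p = 0.0573 to 0.169).

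POLR3D, POLR3E and POLR3K fell 2.03-, 2.33- and 2.55-fold on the group means. POLR3D and POLR3E encode a dimer that resembles the general factor TFIIF. POLR3D was at 8.10 and 9.69 RPKM in the controls and at 4.63 and 4.15 RPKM after induction (log2 change -0.87, adjusted p = 0.00883). POLR3E was at 4.18 and 4.404 RPKM in the controls and at 2.13 and 1.56 RPKM after induction (log2 change -0.90, adjusted p = 0.00771). Both lost the call without induced 2 (adjusted p = 0.0719 and 0.0988) and with no filter on low values (0.0539 and 0.0740). POLR3K, the small subunit for RNA cleavage and termination, was at 8.85 and 6.35 RPKM in the controls and at 3.42 and 2.55 RPKM after induction (log2 change -1.10, adjusted p = 0.00404; 0.0654 with no filter). Its counterpart in polymerase I, POLR1H, did not pass, and the difference between these genes was not tested.

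In polymerase II, the catalytic subunits did not pass. POLR2A, whose long C-terminal repeat domain coordinates RNA processing, was at 12.3 and 19.98 RPKM in the controls and at 15.0 and 15.4 RPKM after induction, so both induced values lay between the controls (log2 change -0.05, 95% interval -0.62 to 0.52, limma adjusted p = 0.903). POLR2B, the second-largest subunit, was at 27.1 and 24.7 RPKM in the controls and at 22.3 and 24.1 RPKM after induction (log2 change -0.15, 95% interval -0.65 to 0.34, adjusted p = 0.625). POLR2C of the assembly platform was at 11.8 and 10.6 RPKM in the controls and at 13.7 and 10.7 RPKM after induction, with overlapping groups (95% interval -0.40 to 0.61).

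The stalk gene POLR2D was the 1 polymerase II gene that fell. It was at 14.3 and 15.2 RPKM in the controls and at 5.86 and 8.03 RPKM after induction, 2.13-fold lower (log2 change -1.001 ± 0.23, limma adjusted p = 0.00580; 0.0690 without induced 1 and 0.0501 with no filter). POLR2G, which encodes the other stalk subunit, was at 26.003 and 24.7 RPKM in the controls and at 19.5 and 16.6 RPKM after induction and did not pass (log2 change -0.47, 95% interval -0.97 to 0.03). The stalk can leave the yeast enzyme, where its loss is tolerated under some conditions.

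The other polymerase II genes varied between libraries of a group. POLR2I, a small subunit involved in fidelity, was at 14.1 and 16.9 RPKM in the controls and at 16.2 and 9.92 RPKM after induction, and 79.6% of its exon bases are shared with other genes in GENCODE 29. POLR2J was at 24.3 and 42.2 RPKM in the controls and at 47.0 and 42.1 RPKM after induction (log2 change 0.46, 95% interval -0.17 to 1.09, adjusted p = 0.226; 0.0456 without control 2). POLR2J has near-identical copies, so reads could be split among them. Of these, POLR2J3 was under the filter at 0.371 and 0.638 RPKM in the controls and 0.691 and 1.16 RPKM after induction. Other gene models share 76.2% of the exon bases of POLR2J3. POLR2J2 was listed at 0 in both controls and at 0.0494 RPKM in induced 2, and the file of induced 1, as used here, does not reach its row. The same holds for POLR2M, which encodes a protein that binds polymerase II: it was at 5.79 and 1.94 RPKM in the controls and 1.39 RPKM in induced 2. The controls of POLR2M rest on 952 and 267 reads, and their exact Poisson 95% intervals, 5.43 to 6.17 and 1.72 to 2.19 RPKM, do not meet. GCOM1, on the same strand, shares 21.1% of the exon bases of POLR2M.

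None of the 5 genes common to the 3 enzymes passed in either direction with limma, where 26.7% of all tested genes were called lower and 12.2% higher. The counts were also 0 lower and 0 higher at an unadjusted p under 0.05 (32.5% and 15.2% of all tested genes) and with voom (29.9% and 13.6%). With only 5 genes, 0 calls is not far from these shares. POLR2E was at 21.0 and 22.3 RPKM in the controls and at 34.5 and 19.8 RPKM after induction, so the induced libraries lay on either side of the controls. POLR2F showed the same spread at a lower level, with 3.46 and 3.06 RPKM in the controls and 3.69 and 1.83 RPKM after induction. POLR2H was at 12.9 and 10.9 RPKM in the controls and at 11.1 and 9.55 RPKM after induction. POLR2K was at 32.6 and 23.6 RPKM in the controls and at 28.0 and 26.7 RPKM after induction, inside the range of the controls. POLR2L was at 17.4 and 18.5 RPKM in the controls and at 26.9 and 22.5 RPKM after induction, above both controls (log2 change 0.44, 95% interval -0.07 to 0.94, adjusted p = 0.153). POLR2L passed as higher after TMM scaling (adjusted p = 0.0351) and after the shift of the median change to 0 (0.0455), and 22.5% of its exon bases are shared with CD151.

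Ratios of homologous subunits within a library, which scaling between libraries cannot alter, set the 3 enzymes side by side. POLR1A was at 0.413 and 0.427 of the level of POLR2A in the controls and at 0.102 and 0.108 of it after induction, and POLR1B at 0.408 and 0.474 of POLR2B in the controls and at 0.0948 and 0.105 of it after induction. The log2 ratios fell by 2.01 and 2.14, against SDs within groups of 0.05 and 0.13. POLR3A stood at 0.396 and 0.332 of POLR2A in the controls and at 0.312 and 0.371 of it after induction, with overlapping groups. POLR3B stood at 0.0651 and 0.0680 of POLR2B in the controls and at 0.0308 and 0.0267 of it after induction, a log2 difference of -1.21. Over the 5 ratios computed, with POLR3G to POLR3GL among them, the exact permutation p was 0.333 for 4 and 0.667 for POLR3A to POLR2A, and none can go below 0.333 with 2 libraries a group.

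**Figure D3:**
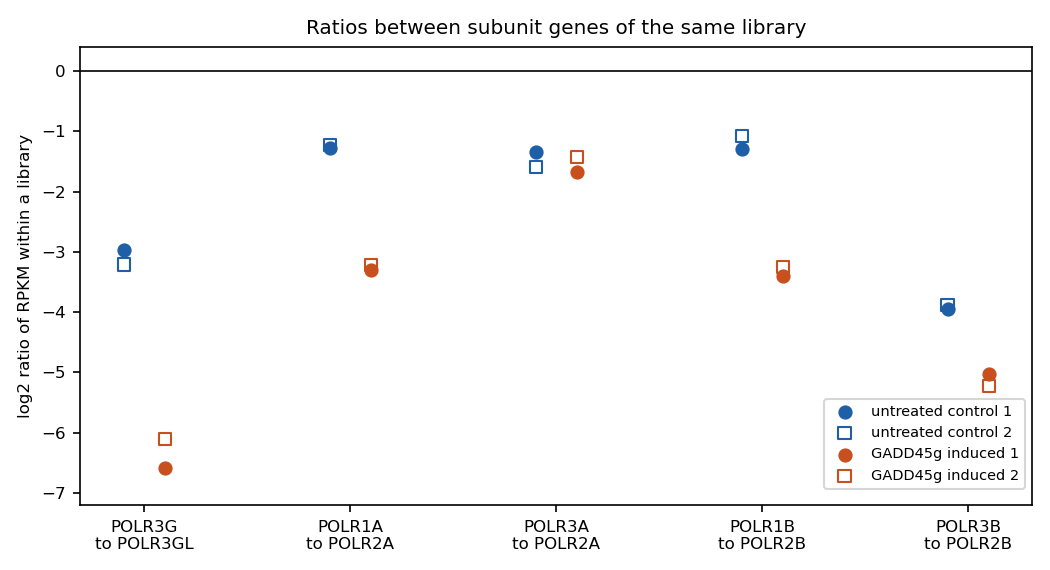
Log2 ratio of RPKM between 2 subunit genes of the same library for 5 pairs; blue are untreated controls, orange GADD45g induced libraries, circles replicate 1 and squares replicate 2. Induced and control libraries stand apart for 4 pairs, by 3.26 for POLR3G to POLR3GL, and overlap for POLR3A to POLR2A.

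Genes that act with the polymerases were counted in 6 lists. Of 10 tested initiation and release factors of polymerase I, 4 fell and 0 rose in limma, where 26.7% of all tested genes were called lower and 12.2% higher. The median log2 change was -0.37. The counts were the same at an unadjusted p under 0.05 and with voom, where 32.5% and 29.9% of all genes were lower and 15.2% and 13.6% higher. TAF1D, a subunit of the selectivity factor that recruits the enzyme, went from 16.8 and 11.7 RPKM to 4.36 and 5.47 RPKM. UBTF, which keeps ribosomal gene chromatin open, went from 17.7 and 20.6 RPKM to 8.09 and 7.62 RPKM. TCOF1 was 2.66-fold lower and passed in 15 of 16 alternatives, and TAF1B was 1.85-fold lower and passed in 7 of 15.

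Of 17 tested initiation factors and regulators of polymerase III, 6 fell and 0 rose in limma. The share that fell was near the 26.7% of all tested genes called lower, where 12.2% were called higher. The median of -0.28 was near the -0.21 of all genes. At an unadjusted p under 0.05, 8 fell and 1 rose, against 32.5% and 15.2% of all tested genes. With voom 7 fell and 0 rose, against 29.9% and 13.6%. GTF3A, the zinc finger factor for the smallest ribosomal RNA, was at 31.4 and 33.6 RPKM before and 10.1 and 11.6 RPKM after induction (adjusted p = 0.000463). BRF2, which serves promoters outside the gene such as that of U6 RNA, went from 52.0 and 64.6 RPKM to 17.7 and 21.0 RPKM (log2 change -1.54, adjusted p = 0.000627). GTF3C6, a subunit of the factor that binds transfer RNA genes, was 2.34-fold lower, and SSB, the La protein that binds the ends of new polymerase III transcripts, was 1.98-fold lower and passed in 14 of 16 alternatives.

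Of 27 tested general transcription factors of polymerase II, 4 fell and 2 rose, shares below the 26.7% and 12.2% of all tested genes, with a median of -0.08. The counts at an unadjusted p under 0.05 were 5 and 3, against 32.5% and 15.2% of all tested genes. With voom they were 4 and 3, against 29.9% and 13.6%. TAF5 (2.54-fold lower) and GTF2H3 (2.22-fold lower) passed in all 16 alternatives, TAF8 (1.90-fold) in 10 and GTF2H1 (1.82-fold) in 8 of them. Those that rose, named after their values were seen, were TAF10 (log2 change 0.67) and TAF13 (0.92). Of 27 tested pausing, elongation and C-terminal domain factors, 4 fell and 2 rose in limma, again below the 26.7% and 12.2% of all tested genes. The median was -0.04. At an unadjusted p under 0.05, 7 fell and 5 rose, against 32.5% and 15.2% of all tested genes. With voom 7 fell and 4 rose, against 29.9% and 13.6%. By these 2 counts the share that rose was near that of all genes, and the difference was not tested. ELL2, a subunit of the super elongation complex, rose 4.04-fold, with 1.89 and 1.496 RPKM before and 6.12 and 7.54 RPKM after induction (limma adjusted p = 0.000368). SUPT16H and SSRP1, which together form the histone chaperone FACT, were 2.70- and 2.39-fold lower, and the phosphatase gene CTDSPL was 3.66-fold lower. The other calls of this list, named after their values were seen, were ELL (log2 change 0.85) and the pausing factor gene NELFCD (-0.69).

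Of 12 tested genes for assembly and import of the enzymes, 5 fell and 0 rose in limma, where 26.7% of all tested genes were called lower and 12.2% higher. The median was -0.57. At an unadjusted p under 0.05, 8 fell and 0 rose, where 32.5% of all tested genes were lower and 15.2% higher. With voom 6 fell and 0 rose, where 29.9% were lower and 13.6% higher. URI1, a prefoldin-like protein that binds the product of POLR2E, went from 27.3 and 22.8 RPKM to 7.74 and 8.95 RPKM. RUVBL2, an ATPase of the same assembly machinery, went from 31.2 and 32.0 RPKM to 12.4 and 8.12 RPKM, while its partner RUVBL1 was 1.70-fold lower and passed in 7 of 16 alternatives. RPAP2 was 2.21-fold lower and passed in 7 of 15, and GPN3, named after its values were seen, had a log2 change of -0.66. For the single-subunit enzyme of mitochondria, 2 of 6 tested genes fell and 0 rose in limma. The share that fell was near the 26.7% of all tested genes called lower, where 12.2% were called higher. At an unadjusted p under 0.05, 4 of the 6 fell and 0 rose, where 32.5% of all tested genes were lower and 15.2% higher. With voom 3 fell and 0 rose, where 29.9% were lower and 13.6% higher. The 2 that fell in limma were its cofactors TFB2M (3.20-fold lower) and TFAM (2.73-fold lower).

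**Figure D4:**
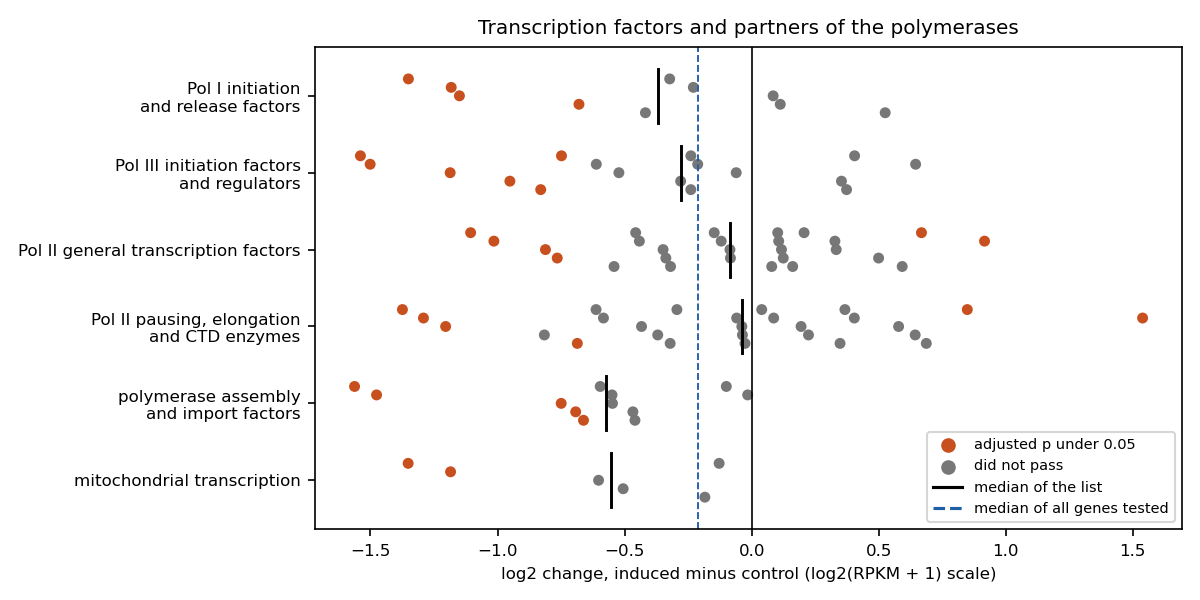
Log2 change of each tested gene of 6 lists of polymerase partners, induced minus control on the log2(RPKM + 1) scale; orange points passed at an adjusted p under 0.05, black bars are list medians and the dashed line is the median of all tested genes. The medians run from -0.57 for assembly and import factors to -0.04 for pausing and elongation factors.

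MYC, a transcription factor known to bind genes of ribosome production, was at 35.1 and 42.9 RPKM in the controls and at 1.59 and 1.07 RPKM after induction. Its binding motif, the E-box CACGTG, which reads the same on both strands, was searched in RefSeq promoter windows of 300 bases, from 250 before to 50 after a start. Windows were matched for 24 of the 33 genes. The motif was found in 4 of these 24 genes (16.7%) and in 13.1% of the 8398 tested genes with a window. It was found in 2 of 9 windowed genes that fell and in 2 of 13 that did not pass. The windows that hold it are shown here 5′ to 3′ along the gene, with the E-box in capitals (and, in POLR3E, also the letters GGTTCGA). They lie on GRCh38.p14 at chr19:45406394-45406693 (plus strand) for POLR1G, chr16:22297159-22297458 (plus) for POLR3E, chr10:78029466-78029765 (minus) for POLR3A and chr1:145823950-145824249 (plus) for POLR3C.
POLR1G: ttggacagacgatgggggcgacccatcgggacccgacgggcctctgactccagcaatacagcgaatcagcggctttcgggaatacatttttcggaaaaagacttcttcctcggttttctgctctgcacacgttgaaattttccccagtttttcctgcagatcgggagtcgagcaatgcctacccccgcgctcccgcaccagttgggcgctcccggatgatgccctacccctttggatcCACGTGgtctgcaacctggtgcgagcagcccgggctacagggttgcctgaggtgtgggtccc
POLR3E: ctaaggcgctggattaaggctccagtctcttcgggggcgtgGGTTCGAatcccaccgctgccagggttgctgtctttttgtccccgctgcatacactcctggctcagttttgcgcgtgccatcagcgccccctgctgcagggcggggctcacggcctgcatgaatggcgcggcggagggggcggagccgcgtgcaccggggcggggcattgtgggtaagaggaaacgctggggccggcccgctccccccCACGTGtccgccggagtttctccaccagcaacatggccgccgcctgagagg
POLR3A: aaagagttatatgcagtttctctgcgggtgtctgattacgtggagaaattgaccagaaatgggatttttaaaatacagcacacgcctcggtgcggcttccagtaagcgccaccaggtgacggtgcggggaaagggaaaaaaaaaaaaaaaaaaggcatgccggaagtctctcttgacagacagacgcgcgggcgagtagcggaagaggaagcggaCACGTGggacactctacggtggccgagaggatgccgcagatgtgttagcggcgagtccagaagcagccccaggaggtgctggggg
POLR3C: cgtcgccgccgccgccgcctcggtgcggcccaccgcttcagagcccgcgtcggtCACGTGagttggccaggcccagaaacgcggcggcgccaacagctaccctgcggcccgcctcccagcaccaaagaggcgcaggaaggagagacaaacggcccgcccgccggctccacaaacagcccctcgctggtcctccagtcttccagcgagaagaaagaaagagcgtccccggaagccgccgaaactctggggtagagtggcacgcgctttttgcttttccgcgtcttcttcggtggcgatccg

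Counted from the start, the E-box begins at position -12 in POLR1G, -1 in POLR3E, -35 in POLR3A and -196 in POLR3C. POLR1G and POLR3E fell, while POLR3A and POLR3C did not pass. The window of POLR3E also overlaps TRL-AAG2-4, a leucine transfer RNA gene and thus of a class that polymerase III transcribes. The letters GGTTCGA, part of the internal promoter of such genes and searched on both strands after the windows were seen, begin at position -209 in POLR3E. They were found in 1 of the 24 genes (4.17%) and in 1.57% of the tested genes with a window. These matches describe the letters of the windows, and binding was not measured.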

How the data were processed

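RNA-seq of 4 MOLM-13 libraries (2 per group) was used. The authors' deposited values are RPKM, per the file headers, with 1 value per Ensembl gene ID; TopHat, Cuffnorm, Cuffdiff and the build hg19 are named, per the submitters' processing notes, without roles. The sources used here do not give strand or read length. The induced 1 file used here stops after 27332 of 57820 IDs, and only genes listed in all 4 files were tested.

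Symbols came from a table of gene names, and rows of 1 symbol were summed. In each library 100.0% of low values (up to 20 reads, genes with an unchanged GENCODE 29 model) were whole multiples of 1 read within 0.01 reads, which gave the depths. Reads followed from whole-number gene lengths, solved within 0.005 reads for 98.2% of tested IDs; where several lengths fitted, the one nearest to GENCODE 29 was taken. Intervals cover counting error only, and a count of 0 allows up to 3 reads. Genes averaging 1 RPKM or more were fitted as log2(RPKM + 1) with limma 3.58.1 (R 4.3.3; eBayes with trend; 2 residual and 8.72 prior degrees of freedom), two-sided, with Benjamini-Hochberg adjustment; 95% intervals use the moderated spread. The code was tested on simulated data. Tables used pandas 2.3.3, numpy 2.4.6 and scipy 1.17.1. P-values measure the spread between these libraries.

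Members and lists were chosen with earlier results of these data known. Named genes were the members (1 is counted but not reported here), from each list up to 4 tested genes of smallest adjusted p, GADD45G and MYC. CAVIN1, CRCP, GTF2H2, GTF2H4, GTF2H5 and TAF9 of the lists were not tested. No protein sequences were used. Promoter windows are RefSeq's (GRCh38.p14); for 28 of 30 member windows the bases after the start lie in a GENCODE 29 transcript of the gene. The 16 alternatives were other scalings, pseudocounts, filters and priors, a replicate block, voom, and each library left out.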

Additional observations from a re-analysis of the deposited data

How the results depend on the processing

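The 13 subunit genes called lower with all libraries were the same 13 after upper quartile scaling, with pseudocounts of 0.1 and 5, without trend, with a robust prior, with voom and with the replicate block. Over all genes, these settings called from 2293 (upper quartile scaling) to 3393 (replicate block) lower. Libraries of the same title suffix deviated together (correlation 0.349 over 10771 genes), but the labels do not say that the suffix marks a shared culture or day. Of the 13 genes, 11 remained after TMM scaling, 11 after quantile normalization and 11 after shifting the median change to 0. With no filter the count was 7, where 20689 genes share the adjustment and 1639 of them were called lower. A filter at 5 RPKM gave 9, because POLR1A, POLR3B, POLR3E and POLR3G were then not tested. With that filter 2049 of all 6952 genes tested were called lower. Leaving out a library, which leaves a single library in its group, removed some calls, as given above for POLR2D, POLR3B, POLR3D and POLR3E. Without control 1, POLR3G fell under the filter. Genes called higher numbered 1 after TMM scaling and after the shift of the median (POLR2L). The fit of POLR2J without control 2 is given above. TMM scaling moved the median change of all genes by 0.22. No called member changed sign under these alternatives, which for most of them was fixed in advance. Filters, priors and the replicate block leave a change as it was. Leaving out a library cannot reverse groups that do not overlap. Some members that did not pass changed sign, among them POLR3A and POLR2K in 6 settings each and POLR2A in 5.

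On log2(RPKM + 1) the ratio differences were smaller, since a pseudocount shrinks those of low genes: -1.73 for POLR3G to POLR3GL, -1.51 for POLR1A to POLR2A, -1.75 for POLR1B to POLR2B and -0.56 for POLR3B to POLR2B. With a library left out they ranged from -3.50 to -3.01, -2.05 to -1.96, -2.25 to -2.03 and -1.32 to -1.11. The difference for POLR3A to POLR2A was -0.09 with all libraries and -0.22 to 0.04 with a library left out, with the other sign without control 1 (0.038) or induced 1 (0.036). Induced values of POLR3G rest on 22 and 26 reads, which limits their precision.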
